A study of Rattus norvegicus with 6 samples.

Results

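The genes that carry out protein synthesis in the cytosol, together with the enzymes that load transfer RNAs, were compared between postnatal and fetal rat islet preparations. Members were chosen by gene symbol: initiation factor genes (Eif followed by a digit, without Eif2ak3), elongation factor genes (Eef followed by a digit) and aminoacyl-tRNA synthetase genes (1 capital letter followed by ars, or Eprs). The rule took in 94 of the 18625 named genes, of which 46 were initiation genes, 14 elongation genes and 34 synthetase genes. The symbols also cover kinases and binding proteins that restrain the factors, and enzymes that modify them. Total RNA depleted of ribosomal RNA was sequenced from freshly isolated pancreatic islets of Rattus norvegicus, with 3 postnatal libraries and 3 fetal libraries of embryonic day 19. The labels name no strain, genotype or treatment for either group. Titles place every postnatal library at 2 weeks, but the separate age field reads week 2 for replicate 1, week 3 for replicate 2 and week 4 for replicate 3. The libraries were grouped by title. The labels do not tie replicates to separate animals, so the p-values describe the spread between these libraries, part of which may be technical.

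Values are given as scaled CPM, that is CPM of a library size adjusted between libraries. The postnatal libraries held 28174506 to 29515446 recovered reads and the fetal libraries 26051449 to 37819935. A single read was worth 0.0341 to 0.0506 scaled CPM in postnatal and 0.0242 to 0.0308 scaled CPM in fetal libraries. Of 7 islet hormone genes all were detected, and they took 4.06% to 11.0% of the postnatal reads and 0.216% to 0.614% of the fetal reads. Markers of acinar cells, the enzyme-secreting cells that surround islets, took 49.0%, 27.6% and 24.3% of the reads in postnatal replicates 1, 2 and 3, and 9.26% to 12.4% in fetal libraries (23 genes, none at 0 in all libraries). Of 22 acinar markers tested 16 rose, 5 did not pass and 1, the transcription factor gene Ptf1a, fell. Both groups of preparations labelled as islets thus contained acinar transcripts. Proliferation markers took 0.0640% to 0.0784% of the postnatal and 0.418% to 0.532% of the fetal reads, and all 9 of them tested fell. Erythroid markers took 0.0733% to 0.165% of the postnatal and 0.359% to 1.18% of the fetal reads, and 9 of 10 tested fell. Of those that fell, Hbe1 and Hbg1 reached 1 scaled CPM in fetal libraries alone. They entered the test through that group, so they could hardly be called higher. Mesenchymal markers took 0.468% to 1.26% of the postnatal and 0.185% to 0.283% of the fetal reads, and 6 of 7 rose, as did all 6 endothelial markers and 4 of 8 immune markers. Of 6 duct markers 2 fell and none rose, and that share lower of 33.3% is near the 33.1% of all genes tested. The share of all genes tested that rose was 30.0%. Fetal replicate 2 stood apart on hepatic markers, with 0.890% of its reads, against 0.0375% and 0.0399% in the other fetal libraries and 0.0215% to 0.0276% in postnatal libraries. Without that library 32 initiation, 8 elongation and 23 synthetase genes were lower, and 3 members were higher. In such bulk samples fewer cells of a type and less RNA per cell cannot be told apart. The part of these markers in the differences described here was not tested.

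Translation starts when initiation factors bring the small ribosomal subunit and the initiator tRNA to the capped end of a messenger RNA. Elongation factors then deliver loaded tRNAs and move the ribosome along, and each synthetase joins a given amino acid to its tRNAs. Islet endocrine cells and acinar cells both export large amounts of protein, and cells under stress slow initiation by phosphorylating the factor eIF2.

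Most of the translation genes were lower after birth. Of the 94 members, 71 fell, 5 rose and 18 did not pass (limma, Benjamini-Hochberg adjusted p under 0.05 over all 12926 genes tested). Among all genes tested, 33.1% fell and 30.0% rose. The median log2 fold change of the members was -0.68, beside -0.03 for all genes tested. Among the members that fell, the fetal mean was 1.20 to 3.28 times the postnatal mean, with a median of 1.76. The values of the groups did not overlap in 75 members that were lower and 4 that were higher, while over all genes tested these shares were 36.9% and 33.1%. All 94 members passed the filter on low values, Eef1a2 through its postnatal libraries alone. Without it, 71 of 93 members fell and 4 rose. Every class shared the direction, with 35 of 46 initiation genes, 8 of 14 elongation genes and 28 of 34 synthetase genes lower.

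The summed level of each class was lower in every postnatal library than in every fetal library. Initiation genes together reached 7495, 6339 and 6425 scaled CPM in postnatal replicates 1, 2 and 3, against 10633, 11438 and 12712 scaled CPM in fetal replicates 1, 2 and 3. Elongation genes summed to 13765, 11477 and 10335 scaled CPM in the postnatal and 16282, 18049 and 20156 scaled CPM in the fetal libraries. Eef1a1 and Eef2, neither of which passed, made up 90.2% to 91.1% of that sum in postnatal and 86.5% to 86.7% in fetal libraries. The other 12 elongation genes summed to 1352, 1019 and 991 scaled CPM in the postnatal and 2190, 2403 and 2702 scaled CPM in the fetal libraries. Synthetase genes summed to 2593, 1999 and 1977 scaled CPM in the postnatal and 3271, 3667 and 3934 scaled CPM in the fetal libraries. The largest postnatal sum of each class came from replicate 1, although by unscaled percent of reads each class was smallest in that library. Rescaling to library totals without the 20 highest genes shifted the median log2 fold change of all genes tested to 0.20 and moved the split over all genes to 39.0% higher and 24.9% lower. Under that scaling 60 members were still lower and 7 higher, and their median was -0.45. Under plain library totals, with 14.4% of all genes higher and 39.3% lower, the members split into 82 lower and 2 higher.

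**Figure D1:**
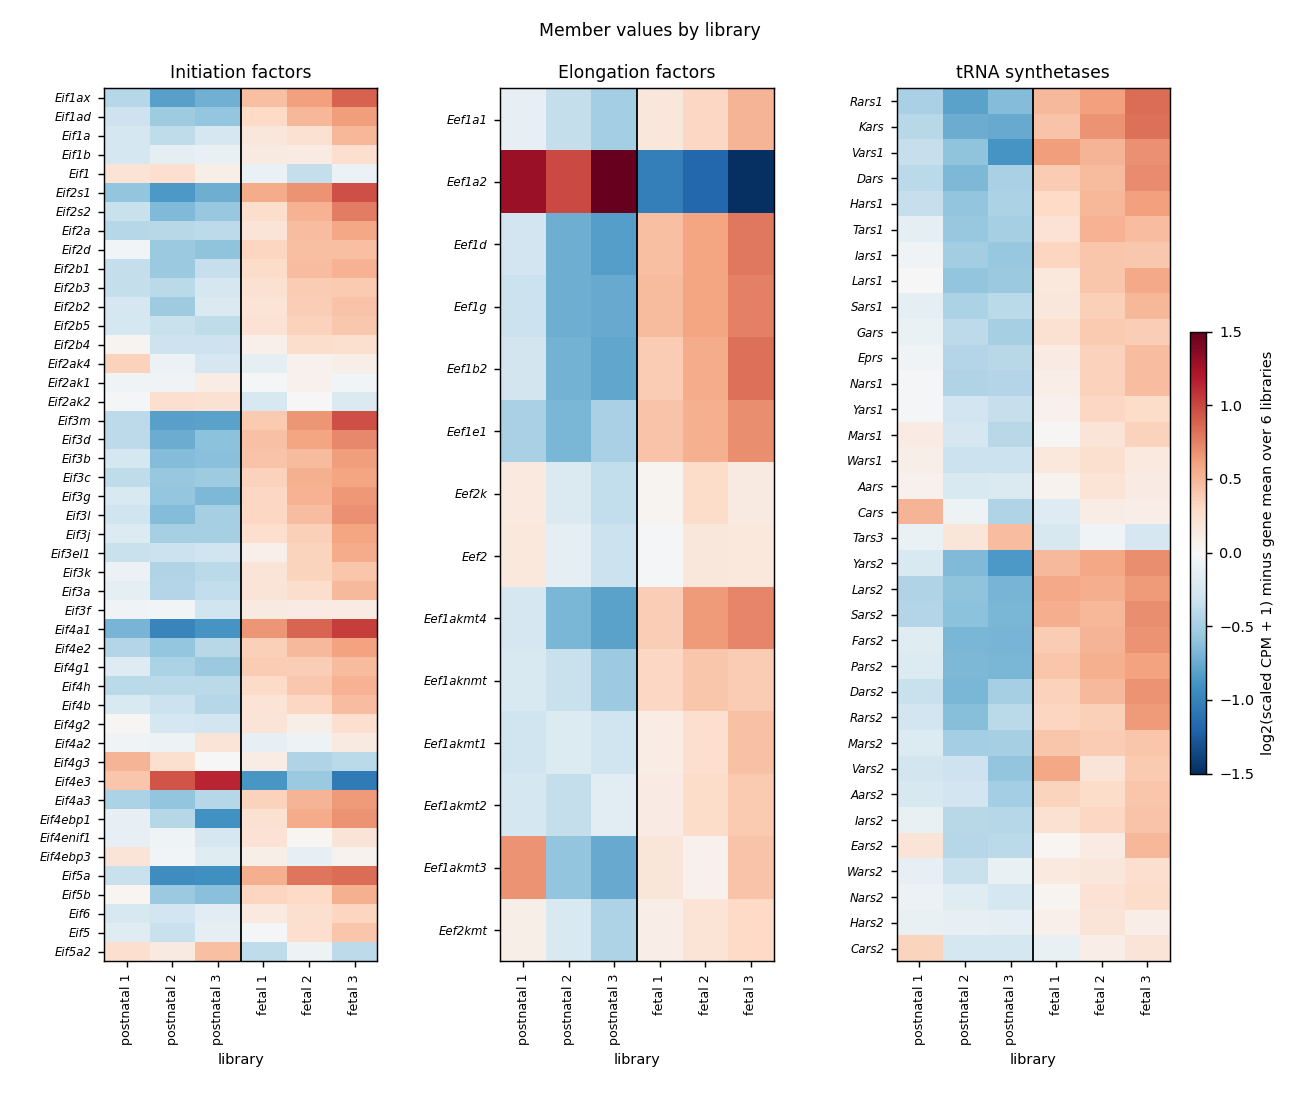
Values of all 94 members (rows, by class and role) in the 3 postnatal and 3 fetal libraries (columns), as log2(scaled CPM + 1) minus the gene's mean over the 6 libraries; the colour scale is capped at 1.5 either way. Most rows are blue in the postnatal and red in the fetal columns, and Eef1a2 and Eif4e3 show the opposite.

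The factor eIF2 carries the initiator tRNA to the ribosome, and both of its subunit genes measured fell. Eif2s1, encoding the alpha subunit that stress kinases phosphorylate, stood at 69.9, 57.8 and 63.2 scaled CPM in the postnatal libraries, against 156, 169 and 207 scaled CPM in the fetal libraries. Every fetal value lay far above the highest postnatal value, and its log2 fold change was -1.46 ± 0.13 (SE; adjusted p = 9.51e-05). Eif2s2, encoding the beta subunit, averaged 123 ± 14.6 scaled CPM in postnatal and 255 ± 44.4 scaled CPM in fetal libraries (SD, n = 3 each). All 5 genes of eIF2B, the exchange factor that recharges eIF2 with GTP, fell as well, by log2 fold changes between -0.84 (Eif2b1) and -0.39 (Eif2b4). Eif2b5, the catalytic epsilon subunit, averaged 69.7 ± 2.80 scaled CPM in postnatal and 110 ± 7.24 scaled CPM in fetal libraries. Eif2a and Eif2d, encoding alternative carriers of initiator tRNA, fell by 0.83 and 0.81 on the log2 scale.

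None of the 3 genes of eIF2 kinases measured among the members passed. Eif2ak1, encoding the heme-regulated kinase, stood at 42.9, 42.8 and 48.3 scaled CPM in postnatal and 43.8, 46.6 and 43.2 scaled CPM in fetal libraries, and the groups overlapped (log2 fold change 0.00 ± 0.09; adjusted p = 0.975). Eif2ak4, encoding the amino acid sensor GCN2, averaged 85.8 ± 19.4 scaled CPM in postnatal and 84.8 ± 7.37 scaled CPM in fetal libraries. Eif2ak2, encoding the double-stranded RNA sensor PKR, averaged 23.1 ± 2.48 scaled CPM in postnatal and 18.5 ± 1.97 scaled CPM in fetal libraries, without passing (adjusted p = 0.0703). Eif2ak2 passed as higher under 6 of 21 alternatives (adjusted p from 0.0132 to 0.927 over all 21). Among the 6 were edgeR (adjusted p = 0.0432), DESeq2 (0.0368), library totals without the 20 highest genes (0.0149) and the fit without postnatal replicate 1 (0.0283). Under plain library totals its log2 fold change turned to -0.03. Eif2ak3, encoding the endoplasmic reticulum kinase PERK and left out by the rule, had a log2 fold change of -0.02 ± 0.19 (adjusted p = 0.928). A p that misses the threshold does not show equal levels.

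The large scaffold eIF3, which binds the small subunit and recruits messenger RNA, had 10 of its 11 measured genes lower. Eif3m fell most, with 216, 162 and 163 scaled CPM in the postnatal libraries and 375, 452 and 557 scaled CPM in the fetal libraries (log2 fold change -1.34 ± 0.18; adjusted p = 5.14e-04). Eif3d, whose product can bind the cap itself, averaged 125 ± 15.4 scaled CPM in postnatal and 280 ± 27.3 scaled CPM in fetal libraries (-1.17 ± 0.13). Eif3a, encoding the largest subunit, changed less, with a log2 fold change of -0.63 ± 0.15. Eif3f was the member that did not pass (-0.26 ± 0.10; adjusted p = 0.0548), although its values of 92.3, 92.7 and 77.7 scaled CPM in postnatal libraries lay under its fetal values of 104 to 105 scaled CPM. RefSeq lists Eif3el1 both as a gene of its own and as an older name of Eif3e, so the gene behind that value is uncertain. Among the factors that open the ribosome for scanning, Eif1ax fell by 1.30 ± 0.15 on the log2 scale (107 ± 15.4 scaled CPM in postnatal and 265 ± 41.3 in fetal libraries). Its near-identical copy Eif1a fell by 0.59 ± 0.11, and reads could be divided between them.

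In the eIF4 group, which reads the cap and unwinds the leader of the messenger RNA, the genes of 1 family had unlike values. Eif4a1, encoding the main helicase, stood at 417, 340 and 367 scaled CPM in the postnatal libraries, against 1066, 1237 and 1387 scaled CPM in the fetal libraries. This 3.28-fold lower postnatal mean was the largest fall of the 94 members (log2 fold change -1.71 ± 0.16; adjusted p = 9.85e-05). Its paralog Eif4a2 stood at 373, 366 and 444 scaled CPM in postnatal and 356, 368 and 424 scaled CPM in fetal libraries, and the groups overlapped (0.04 ± 0.13; adjusted p = 0.796). RefSeq lists near-identical copies of Eif4a1, Eif4g2 and Eif1, so the division of reads in these genes is uncertain. Eif4a3, a helicase of the same family that sits in the exon junction complex, fell as well, with a mean of 78.6 ± 4.48 scaled CPM in postnatal and 158 ± 16.1 scaled CPM in fetal libraries.

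The scaffold and cap-binding genes included both falls and rises. Eif4g1, the scaffold that joins helicase, cap-binding protein and eIF3, averaged 812 ± 109 scaled CPM in postnatal and 1422 ± 57.3 scaled CPM in fetal libraries (log2 fold change -0.81 ± 0.16). Eif4g3, encoding a related scaffold, stood at 95.2, 79.0 and 66.2 scaled CPM in postnatal and 72.3, 48.3 and 50.3 scaled CPM in fetal libraries. Its call was at the edge of the threshold (0.49 ± 0.19; adjusted p = 0.04999), the groups overlapped, and it did not pass under 10 of 21 alternatives (adjusted p from 0.0122 to 0.620), among them without fetal replicate 2 or 3 or postnatal replicate 1 or 2. Eif4e3, encoding an unusual member of the cap-binding family, stood at 11.5, 17.1 and 19.8 scaled CPM in the postnatal libraries and 4.14, 5.40 and 3.51 scaled CPM in the fetal libraries. It rose by 1.66 ± 0.22 on the log2 scale (adjusted p = 4.83e-04), the largest rise of an initiation gene, and passed under all 21 alternatives. Eif4e2, encoding a cap-binding protein that can repress translation, fell (-0.96 ± 0.11).

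Of the inhibitors, Eif4ebp1, whose product blocks the cap-binding factor until mTORC1 phosphorylates it, averaged 32.0 ± 8.70 scaled CPM in postnatal and 62.4 ± 9.86 scaled CPM in fetal libraries (-0.97 ± 0.21; adjusted p = 0.00464). Eif4ebp3, encoding a relative of it, averaged 129 ± 17.2 scaled CPM in postnatal and 130 ± 9.91 scaled CPM in fetal libraries and did not pass. The helicase cofactor genes Eif4b and Eif4h fell by 0.65 and 0.81 on the log2 scale. Eif4g2, encoding a scaffold used without the cap, did not pass (-0.35 ± 0.16; adjusted p = 0.0853), though its groups did not overlap. The genes Eif4e and Eif4ebp2 were not analysed here.

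Late initiation genes also included both directions. Eif5a, whose hypusine-bearing product helps ribosomes through difficult stretches such as runs of proline, stood at 306, 201 and 203 scaled CPM in postnatal and 561, 675 and 692 scaled CPM in fetal libraries (-1.46 ± 0.19; adjusted p = 4.28e-04). Its paralog Eif5a2 was scarce, at 2.94, 2.62 and 3.52 scaled CPM in the postnatal and 1.54, 2.13 and 1.51 scaled CPM in the fetal libraries, and rose by 0.56 ± 0.17 (adjusted p = 0.0186). It did not pass without postnatal replicate 3, fetal replicate 1 or fetal replicate 3 (adjusted p from 0.0556 to 0.0646). Eif5b, which joins the ribosomal subunits, fell by 0.77 ± 0.18, and Eif6, which keeps the large subunit apart until it is mature, by 0.47 ± 0.09. Eif1, which guards the choice of start codon, rose with 101, 104 and 93.5 scaled CPM in postnatal and 81.8, 68.2 and 82.3 scaled CPM in fetal libraries (0.36 ± 0.11; adjusted p = 0.0192). Without fetal replicate 2 or postnatal replicate 2 it did not pass (adjusted p = 0.0844 and 0.0710). Under plain library totals the rises of Eif1 (0.01; adjusted p = 0.961), Eif5a2 (0.33; adjusted p = 0.278) and Eif4g3 (0.15; adjusted p = 0.620) were not called. Those of Eif4e3 (1.36) and Eef1a2 (2.35) were.

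**Figure D2:**
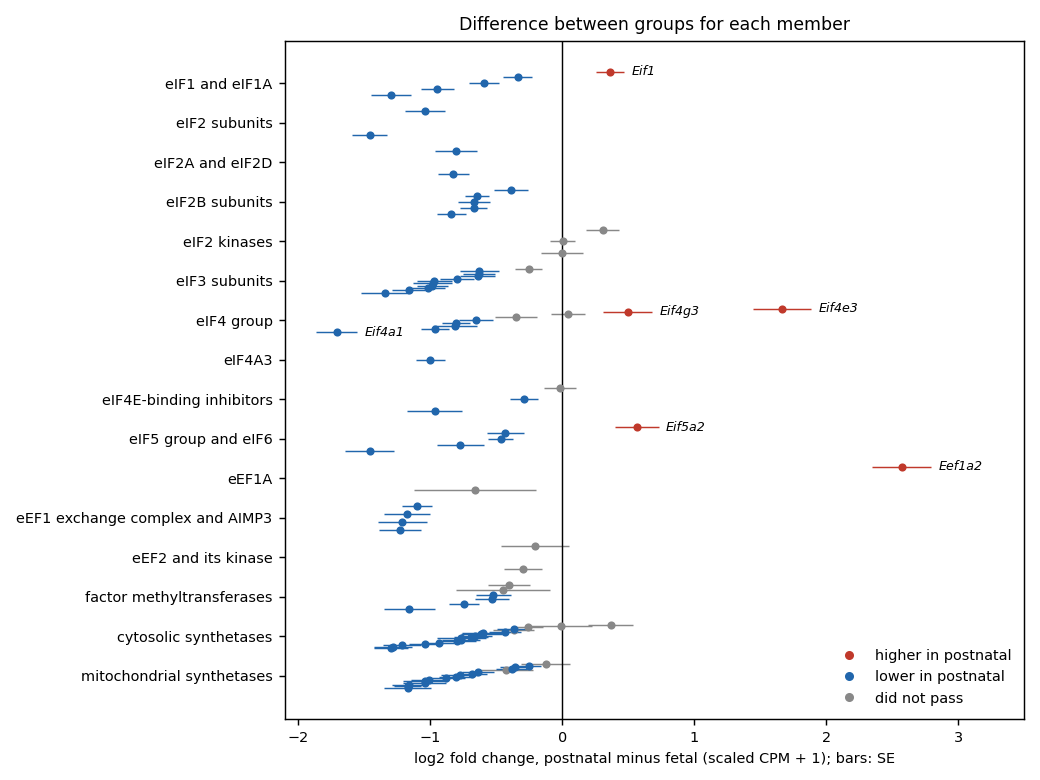
Log2 fold change of each member, postnatal minus fetal, on the scaled CPM + 1 scale, with bars for the SE, grouped by role. Of 94 members 71 are lower, and the 5 higher ones are Eef1a2, Eif4e3, Eif5a2, Eif4g3 and Eif1.

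Among elongation genes, the exchange complex that reloads eEF1A with GTP was lower in every subunit measured. Eef1g, its gamma subunit, stood at 803, 602 and 591 scaled CPM in the postnatal libraries and 1394, 1512 and 1688 scaled CPM in the fetal libraries (-1.21 ± 0.18; adjusted p = 8.46e-04). Eef1d and Eef1b2, encoding the delta and beta subunits, fell by 1.23 ± 0.16 and 1.18 ± 0.17 on the log2 scale. Eef1e1, whose product is also called AIMP3 and belongs to the complex of synthetases, fell by 1.10 ± 0.11. These 4 log2 fold changes lay between -1.23 and -1.10.

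The carrier eEF1A itself, which brings loaded tRNAs to the ribosome, has 2 genes among the members. Eef1a1, the form found in most tissues, stood at 9041, 7738 and 6925 scaled CPM in the postnatal libraries and 11099, 12253 and 14073 scaled CPM in the fetal libraries. The groups did not overlap, but limma's moderated test did not pass (-0.66 ± 0.46; adjusted p = 0.243). That SE draws on the spread of other genes of like abundance, so it does not measure the spread of Eef1a1 alone. Its own SDs were 1067 scaled CPM in postnatal and 1500 scaled CPM in fetal libraries. Eef1a1 passed under 3 of 21 alternatives (adjusted p from 6.73e-05 to 0.646). These were DESeq2 (6.73e-05), limma on plain library totals (0.00199) and limma with a robust trend (0.0484). RefSeq lists near-identical copies that could take some of its reads. Eef1a2, the form of neurons and muscle, stood at 7.69, 5.99 and 9.49 scaled CPM in the postnatal libraries, from 152, 174 and 278 reads. In the fetal libraries it stood at 0.737, 0.557 and 0.123 scaled CPM, from 24, 23 and 4 reads. It rose by 2.57 ± 0.22 on the log2 scale (adjusted p = 8.35e-05), the largest change of the 94 members, and passed under each of the 20 alternatives that tested it. Markers of neurons and muscle took 0.00839% to 0.0175% of the postnatal and 0.00703% to 0.0106% of the fetal reads, and 6 of 8 tested rose. Of those that rose, Acta1 and Tnnt3 passed the filter on low values through their postnatal libraries alone, so they could hardly be called lower. Pan-endocrine markers took 0.244% to 0.637% of the postnatal and 0.0744% to 0.129% of the fetal reads, and 9 of 10 tested rose. The part of either in the rise of Eef1a2 was not tested.

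The translocation factor and its kinase did not pass. Eef2, which moves the ribosome by a codon, stood at 3373, 2720 and 2419 scaled CPM in postnatal and 2993, 3393 and 3380 scaled CPM in fetal libraries, and the groups overlapped (-0.21 ± 0.26; adjusted p = 0.496). Its sign turned to 0.03 with library totals that leave out the 20 highest genes. Eef2k, the kinase that inactivates eEF2, averaged 75.1 ± 14.3 scaled CPM in postnatal and 91.6 ± 7.55 scaled CPM in fetal libraries (adjusted p = 0.107). Of the 6 genes for enzymes that methylate elongation factors, 4 fell, led by Eef1akmt4 (-1.16 ± 0.19), and Eef1akmt3 and Eef2kmt did not pass.

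Pairs of paralogs that perform the same step were then compared by the share that the first gene took of the reads of both, a measure that does not depend on scaling. Read shares are not corrected for transcript length, so their change between groups can be compared, but not the level of the partners. Eif4a2 took 47.2%, 51.8% and 54.8% of the pair's reads in postnatal libraries and 25.0%, 22.9% and 23.4% in fetal libraries. Eif4g3 took 8.95% ± 0.551 in postnatal and 3.86% ± 0.928 in fetal libraries, and Eif5a2 took 1.31% ± 0.379 and 0.268% ± 0.0486 in postnatal and fetal libraries (SD, n = 3 each). Eef1a2 took 0.0998% ± 0.0324 of its pair in postnatal and 0.00402% ± 0.00292 in fetal libraries. Eif1b, the paralog of Eif1, took less after birth, 13.2% ± 1.13 in postnatal and 20.1% ± 1.41 in fetal libraries. In none of the 5 pairs did the groups overlap. An exact permutation test, two-sided, had p = 0.1 in every pair (0.1 after adjustment over 5 pairs). With 3 libraries against 3 no smaller p can be reached, so no pair could pass.

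**Figure D3:**
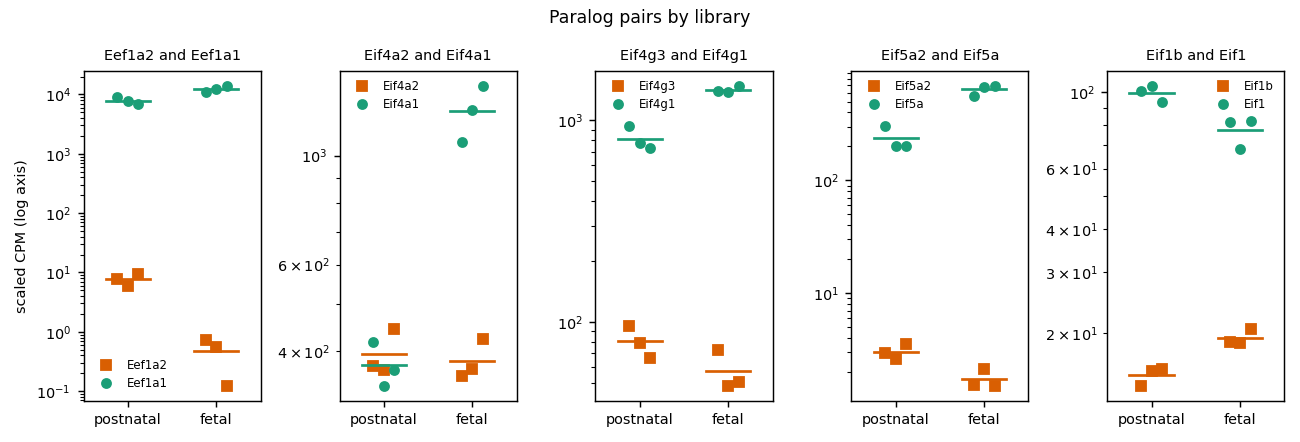
Scaled CPM of both genes of each paralog pair in the 3 postnatal and 3 fetal libraries, on log axes that differ between panels; points are libraries and lines are means. Eif4a1 averages 375 in postnatal and 1230 in fetal libraries, while Eif4a2 averages 394 in postnatal and 383 in fetal libraries.

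The synthetase genes fell in both compartments. Of 18 cytosolic synthetase genes 14 fell and none rose (median log2 fold change -0.68), and of 16 mitochondrial synthetase genes 14 fell and none rose (median -0.79). Gars and Kars encode enzymes for both compartments and were counted with the cytosolic ones. Rars1, the arginine enzyme, fell most, with 63.1, 50.7 and 56.2 scaled CPM in the postnatal libraries and 125, 137 and 161 scaled CPM in the fetal libraries (-1.30 ± 0.13; adjusted p = 1.39e-04). Kars, the lysine enzyme, averaged 111 ± 15.3 scaled CPM in postnatal and 272 ± 36.9 scaled CPM in fetal libraries (-1.28 ± 0.14). The valine gene Vars1 fell by 1.22 ± 0.14, the aspartate gene Dars by 1.04 ± 0.12 and the histidine gene Hars1 by 0.94 ± 0.12 on the log2 scale. Eprs, encoding the fused enzyme for glutamate and proline, averaged 332 ± 51.9 scaled CPM in postnatal and 508 ± 60.3 scaled CPM in fetal libraries (-0.61 ± 0.15).

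The other 4 cytosolic synthetase genes did not pass. Cars, the cysteine enzyme, stood at 101, 66.8 and 51.4 scaled CPM in postnatal and 61.5, 76.5 and 75.7 scaled CPM in fetal libraries, so its postnatal values spanned the fetal range (-0.01 ± 0.23; adjusted p = 0.973). Aars (alanine) and Mars1 (methionine) had log2 fold changes of -0.26 ± 0.11 and -0.37 ± 0.16 and did not pass (adjusted p = 0.0749 and 0.0717). Tars3, a second cytosolic threonine enzyme, averaged 9.99 ± 2.15 scaled CPM in postnatal and 7.44 ± 0.661 scaled CPM in fetal libraries (adjusted p = 0.0952). With the 20 highest genes left out of the totals Tars3 passed as higher (0.60; adjusted p = 0.0310), and so it did without postnatal replicate 1 (adjusted p = 0.0215). Some cytosolic synthetases share a multisynthetase complex. Of 7 synthetase genes of that complex 6 fell (median -0.77), and of the 11 outside it 8 fell (median -0.60); this difference was not tested.

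Among mitochondrial synthetases, Yars2 (tyrosine), Lars2 (leucine) and Sars2 (serine) had close log2 fold changes of -1.17, -1.17 and -1.16. By the ratio of the means their order differed, with fetal means 2.41 times the postnatal mean in Sars2, 2.35 times in Yars2 and 2.30 times in Lars2. Lars2 stood at 26.5, 23.6 and 22.1 scaled CPM in the postnatal libraries and 54.7, 53.7 and 57.6 scaled CPM in the fetal libraries, 2 groups with little spread (-1.17 ± 0.10; adjusted p = 8.33e-05). Yars2 averaged 9.43 ± 2.44 scaled CPM in postnatal and 22.1 ± 1.71 scaled CPM in fetal libraries. Fars2 and Pars2, for phenylalanine and proline, each fell by 1.04 ± 0.16 on the log2 scale. Cars2 and Ears2 did not pass (-0.13 ± 0.18 and -0.43 ± 0.21). In each compartment the cysteine gene had the log2 fold change nearest 0. Across 15 amino acid pairs the log2 fold changes of the mitochondrial and the cytosolic gene had a Pearson r of 0.32. That value is a description over genes that share libraries, and Eprs stands in 2 of the pairs.

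Many synthetase genes of mammals are known targets of ATF4, the transcription factor that cells make when eIF2 is phosphorylated, and ATF4 binds with C/EBP proteins to an element with the letters TGATGNAA. Promoters of RefSeq, assembly GRCr8, were searched on both strands from 250 bases before to 50 bases after the annotated start, and 84 members could be matched. The element stood in 7 of 15 promoters of cytosolic synthetase genes (46.7%), in 0 of 15 of mitochondrial synthetase genes, in 2 of 42 of initiation genes (4.76%) and in 0 of 12 of elongation genes. It stood in 1.96% of the promoters of genes tested and in 3.82% of all promoters in the table. The sites of the synthetase genes are shown because they carry the element that this class holds most often here. Each is read along the strand on which the motif lies, with the motif in capitals.
Aars, upstream site, chr19:55908362-55908385, minus strand: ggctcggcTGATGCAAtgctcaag
Aars, downstream site, chr19:55908483-55908506, minus strand: gagcgctcTGATGAAAagtgaccc
Cars, chr1:208225337-208225360, plus strand: ccagaatcTGATGCAAccgcggcg
Iars1, chr17:15193661-15193684, plus strand: tctggaggTGATGCAAtactgaca
Mars1, chr7:65023755-65023778, plus strand: gcccacgcTGATGCAAccggaacg
Nars1, chr18:60275781-60275804, minus strand: aggtgatcTGATGCAAcgcttcag
Tars1, chr2:62114814-62114837, plus strand: taaccagcTGATGCAAcgggacgc
Yars1, chr5:146820193-146820212, plus strand: agctcagcTGATGCAAcctg

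All but the downstream site of Aars read TGATGCAA. The motif began 14 to 27 bases before the annotated start in Nars1, Mars1, Iars1 and Tars1, and 112 bases before it in Aars. In Cars, Yars1 and the downstream site of Aars it lay within the first 50 transcribed bases. Of the 7 cytosolic synthetase genes with the element 4 fell and 3 did not pass (Aars, Cars and Mars1), with a median log2 fold change of -0.43 and a range of -0.80 to -0.01. Of the 8 without it 7 fell and 1 did not pass, with a median of -0.73 and a range of -1.28 to 0.36. The 3 whose promoters were not matched (Dars, Gars and Rars1) all fell. This split is a description and was not tested. The letters CACGTG, an E-box that MYC and related factors read, stood in 16 of the 84 member promoters (19.0%), in 9.17% of the promoters of genes tested and in 6.65% of all promoters. No E-box overlapped an ATF4 element in these promoters. A C followed by at least 4 pyrimidines at the annotated start, the terminal oligopyrimidine motif of many translation genes, stood in 3 of 84 member promoters (3.57%) and in 2.63% of all. Annotated starts may be off by several bases, which this last search does not allow for.

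The other components of the pathway were taken from lists that did not use the members' symbols. Of 18 genes of the nucleolus and ribosome assembly tested, all fell (median log2 fold change -1.04). Among them Npm1, a nucleolar chaperone, stood at 321, 335 and 313 scaled CPM in the postnatal and 1145, 1238 and 1616 scaled CPM in the fetal libraries (-2.03 ± 0.16). Of 22 genes of tRNA processing and modification 20 fell and none rose (median -0.73). Of 7 termination and recycling genes 6 fell, led by the recycling factor Abce1 (-1.12 ± 0.14). All 6 further genes of synthetases and their complex fell, among them both subunits of the cytosolic phenylalanine enzyme, Farsa (-1.22 ± 0.15) and Farsb (-1.48 ± 0.16). Of 9 enzymes that make hypusine on eIF5A or diphthamide on eEF2, 5 fell and none rose, and both hypusine genes, Dhps and Dohh, were among them (-0.82 ± 0.11 and -0.95 ± 0.14).

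Translation genes of the mitochondrion were mostly lower too. Of 12 mitochondrial translation factors 10 fell and none rose, with the elongation factor Tufm changing most (-1.41 ± 0.12). Mitochondrial ribosomal protein genes fell in 67 of 69 tested (median -1.01). Cytosolic ribosomal protein genes fell in 76 of 77 tested (median -1.05). The members' median of -0.68 was smaller in size than either, and the difference was not tested. Of 11 genes for proteins that act at the cap and the poly(A) tail, 3 fell, 1 rose and 7 did not pass. That is 27.3% lower and 9.09% higher, beside 33.1% and 30.0% of all genes tested, so the share lower is near that of all genes. The poly(A)-binding gene Pabpc1 averaged 243 scaled CPM in postnatal and 278 scaled CPM in fetal libraries (adjusted p = 0.358).

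Genes of the stress response around eIF2 phosphorylation included more rises than falls. The list also held genes that act before that step, such as Eif2ak3 and Gcn1. Of 25 tested, 12 rose, 4 fell and 9 did not pass (median 0.30), that is 48.0% higher and 16.0% lower, beside 30.0% and 33.1% of all genes tested. Asns, the asparagine synthetase gene, stood at 159, 104 and 98.0 scaled CPM in postnatal and 52.4, 75.7 and 54.1 scaled CPM in fetal libraries (0.96 ± 0.21; adjusted p = 0.00528). Atf5, encoding a transcription factor related to ATF4, stood at 77.5, 71.4 and 63.7 scaled CPM in postnatal and 24.2, 29.3 and 27.3 scaled CPM in fetal libraries (1.36 ± 0.12). Ppp1r15a, whose product reverses eIF2 phosphorylation, rose by 1.51 ± 0.31, and Chac1, encoding a glutathione-degrading enzyme, by 1.01 ± 0.19. Chac1 was scarce, at 2.68, 1.48 and 2.56 scaled CPM in postnatal and 0.553, 0.702 and 0.493 scaled CPM in fetal libraries. It passed the filter on low values through its postnatal libraries alone. Atf4 itself did not pass at the RNA level (0.05 ± 0.12; adjusted p = 0.721). The 4 that fell were the serine and folate genes Psat1 (-2.27 ± 0.22), Phgdh (-1.61 ± 0.28) and Shmt2 (-1.33 ± 0.16), and Gcn1 (-0.84 ± 0.16), which encodes an activator of GCN2.

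**Figure D4:**
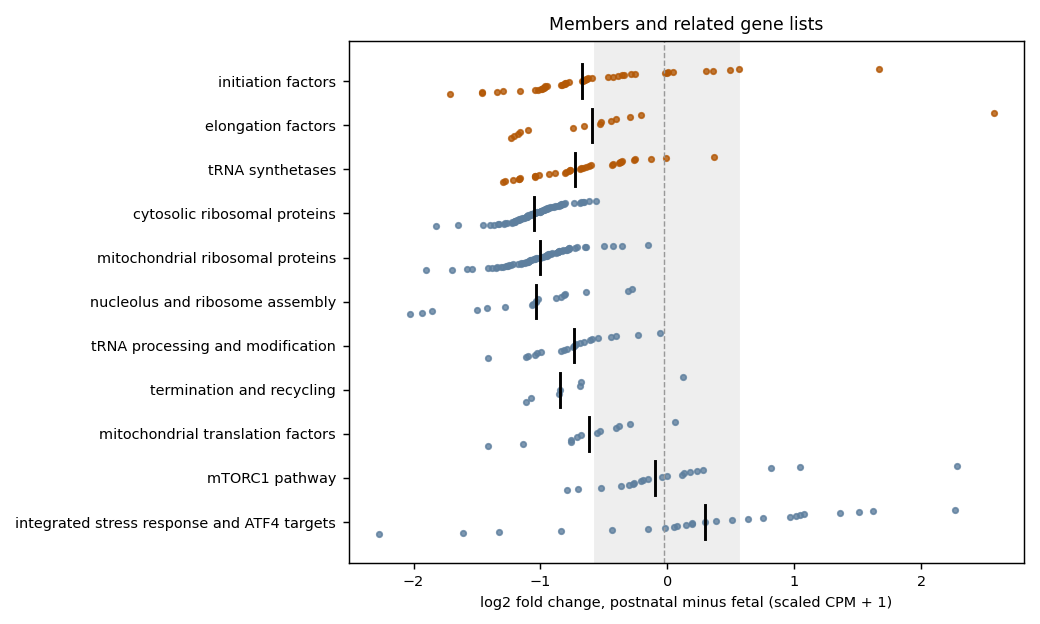
Log2 fold change, postnatal minus fetal, of each gene tested in the 3 member classes (brown) and in related lists (blue); black bars are medians, the dashed line is the median of all genes tested (-0.03) and the grey band its quartiles (-0.57 to 0.56). The medians of the members lie between -0.73 and -0.60, and that of the stress response list at 0.30.

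Within the postnatal group, replicate 1 stood apart for the synthetases in scaled CPM. It was the highest of the 3 postnatal libraries in 32 of 34 synthetase genes, 10 of 14 elongation genes and 26 of 46 initiation genes, and in 41.0% of all genes tested. This ranking depends on the scaling, whose library size factor was 0.677 in replicate 1, against 1.03 and 0.992 in replicates 2 and 3. By percent of reads the order turned, with synthetases at 0.176% in replicate 1, against 0.206% and 0.196%. Initiation and elongation genes also took their smallest postnatal percent of reads in replicate 1. This library had the largest acinar share (49.0% of reads, against 27.6% and 24.3%), the smallest hormone share (4.06%, against 6.45% and 11.0%) and the age label of week 2. These features cannot be told apart in 1 library. Without it, 30 synthetase, 11 elongation and 35 initiation genes were lower and 6 members higher. Within the fetal group, replicate 1 was the lowest in scaled CPM in 72 of the 94 members and in 47.2% of all genes tested. This order also rests on the scaling, since its library size factor of 1.25 was the largest of all libraries. By percent of reads every class was smallest in fetal replicate 2 instead. Synthetases, for example, took 0.401% of reads there and 0.409% in replicate 1. With fetal replicate 1 left out, 68 members were lower and 4 higher.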

How the data were processed

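For each gene and library the authors deposited a normalized expression signal whose unit no header names. Per the submitters' processing notes TopHat2 2.0.8b and edgeR 3.30.3 were used, in roles not stated. The genome build, annotation, counting tool and strand setting were not given in the sources used here; reads of overlapping or antisense genes may be mixed. Division of the signal by the value of 1 read left whole numbers in 100% of values (within 0.001), and the values equal CPM computed on TMM-adjusted library sizes. A row without a gene name, at most 3.19e-05% of reads, was left out. Then log2(value + 1) was tested with limma 3.58.1 in R 4.3.3 (trend, group as the only term, two-sided), over genes with at least 1 in at least 3 libraries, with Benjamini-Hochberg adjustment. Fold changes on that scale understate low genes. Replicates of 1 group were not duplicates (chi-square of their reads, divided by its degrees of freedom, 45.6 to 370). Alternatives included edgeR 4.0.16 and DESeq2 1.42.0 on the recovered reads. Paralog shares were tested with scipy 1.17.1, and 2 planned pairs with Eif4e and Eif4ebp2 were not analysed here. Named members were a set of core factors, the 5 largest called changes in each direction and class, and genes of a subgroup under description. The members and lists were chosen with earlier results of these data known, and the genes named from related lists after their values were seen.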

Additional observations from a re-analysis of the deposited data

How the results depend on the processing

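Of the 76 calls among members, 62 held under all of the 21 alternatives that tested them, 60 falls and 2 rises (Eef1a2 and Eif4e3), and no called member changed sign. The 14 that missed the threshold at least once were Eif1, Eif1b, Eif2b4, Eif4enif1, Eif4g3, Eif5, Eif5a2, Eef1akmt1, Eef1akmt2, Wars1, Yars1, Hars2, Nars2 and Wars2. Counts that moved by over 1.5 times were small ones, or that of falling elongation genes under plain library totals. The cause was not tested. Rising initiation genes (4) numbered 1 under plain library totals and 2 to 4 when 1 library was left out, with 2 without fetal replicate 2, fetal replicate 3 or postnatal replicate 2. Falling elongation genes (8) numbered 13 under plain library totals. The rising elongation gene, Eef1a2, was not tested under a filter of at least 10 in at least 3 libraries, which left 0. Rising synthetases (0) numbered 1, Tars3, without the 20 highest genes, without acinar markers and hormones, with the labelled week as a covariate and without fetal replicate 2 and postnatal replicate 1 together, and 0 to 1 when 1 library was left out, with 1 without postnatal replicate 1. With the replicate number as a block, 2 initiation genes rose and 31 fell, 8 elongation genes and 24 synthetases fell. Same-numbered libraries did not deviate together (r = -0.21, 0.10 and -0.25 for numbers 1, 2 and 3), so the numbers were not taken as pairs. Depth limits Eef1a2, with 4 to 24 fetal reads.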

Other observations

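Of 20 genes of the mTORC1 pathway, which drives translation when nutrients are present, 4 rose, 6 fell and 10 did not pass (median log2 fold change -0.10). Neither count was a larger share than that among all genes tested, of which 30.0% rose and 33.1% fell. Rragd, encoding a GTPase of the amino acid sensing branch, stood at 18.2, 21.1 and 22.5 scaled CPM in postnatal and 3.72, 4.38 and 2.44 scaled CPM in fetal libraries (2.28 ± 0.19; adjusted p = 7.02e-05 by limma). Genes of inhibitors differed in direction: Sesn2 (1.04 ± 0.15) and Deptor (0.81 ± 0.14) rose, Akt1s1 fell (-0.52 ± 0.11), and Tsc1, Tsc2 and Sesn1 did not pass. The kinase gene Rps6kb1 fell by 0.70 ± 0.14. Of 9 genes of the MYC family and its partners 3 rose and none fell, a share higher of 33.3% that is near the 30.0% of all genes tested. Among the genes of MYC antagonists, Mxd4 (1.04 ± 0.12), Mnt (0.83 ± 0.18) and Mxd3 (0.44 ± 0.10) rose, while Mxd1 (-0.14 ± 0.13) and Mxi1 (-0.27 ± 0.12) did not pass. Myc did not pass (-0.52 ± 0.24; adjusted p = 0.0887).

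The 5 other genes whose log2 values followed Eef1a2 most closely over the 6 libraries were Syndig1l, Unc79, Kcnj5, Tspyl4 and Agbl3, with Pearson r of at least 0.997. Each of them was higher in all 3 postnatal than in all 3 fetal libraries, a difference that enters the r. They were picked as the highest r among all other genes tested in these same libraries, so values near the top follow from the choice. Syndig1l passed the filter on low values through its postnatal libraries alone. Kcnj5, a potassium channel subunit gene, stood at 10.6, 9.09 and 12.9 scaled CPM in postnatal and 1.66, 1.67 and 1.05 scaled CPM in fetal libraries.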
